A study of Mus musculus with 12 samples.

Results

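TCR beta V and J segment usage was read from the 4 wells' TCR libraries. For each cell barcode the productive beta chain contig with most UMIs (unique molecular identifiers, one per captured RNA molecule) was taken, and its V and J calls were counted per cell and per clone, a clone being a distinct CDR3 nucleotide sequence within a tumour pool. The contigs used 21 V and 12 J segments. Of 2740 cells kept from 2816 deposited barcodes, 2514 (91.8%) had such a chain, at a median of 24 beta UMIs, and they formed 2030 clones.

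The study followed T cells in tumours of MC38, a mouse colorectal cancer line, grown in mice heterozygous for Kaede, a fluorescent protein that violet light turns from green to red. The tumour-draining lymph nodes were photoconverted on day 14, so that red cells in the tumour had been in those nodes, and tumours of the irradiated groups then received 12 Gy. There were 6 conditions, NT and RT at day 1 and at day 3, and FTY720 and RT with FTY720 at day 3. RT marks radiation, NT carries no radiation, and FTY720, a drug that holds lymphocytes in lymph nodes, was given at 10 µg on day 15. Tumours were taken 24 h (day 1) or 72 h (day 3) after radiation, 4 tumours of 4 mice were pooled per replicate, and CD90.2-positive cells enriched for CD4 and CD8 were sorted by colour. With 2 replicates of each condition there were 12 tumour pools and 24 hashed samples of 13 to 304 cells with a beta chain. Because cells were sorted and pooled, shares of clones describe the cells recovered and not the number of cells in a tumour.

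A T cell assembles its beta chain gene in the thymus by joining a V, a D and a J segment. The V segment encodes the CDR1 and CDR2 loops, which mostly touch the MHC molecule, and the V to J junction encodes CDR3, which mostly touches the peptide. CD8 cells read MHC class I and CD4 cells, both conventional and the suppressive Foxp3-positive Treg cells, read MHC class II. TRBJ1 segments lie before the constant gene Trbc1 and TRBJ2 segments before Trbc2.

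The V segments that the lineage comparisons turned on are shown first, as the stretch from CDR1 to CDR2 read from the contigs, with CDR1 and CDR2 in capitals and framework 2 between them in lower case.
TRBV31: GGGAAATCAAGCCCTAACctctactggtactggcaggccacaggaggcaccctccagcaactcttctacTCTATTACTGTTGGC
TRBV15: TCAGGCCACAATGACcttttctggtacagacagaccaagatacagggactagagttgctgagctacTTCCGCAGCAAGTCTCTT
TRBV3: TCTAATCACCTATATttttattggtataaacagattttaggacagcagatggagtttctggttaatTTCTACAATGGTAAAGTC
TRBV12-1: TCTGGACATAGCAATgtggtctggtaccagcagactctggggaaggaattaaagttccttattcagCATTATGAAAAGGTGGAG
TRBV12-2: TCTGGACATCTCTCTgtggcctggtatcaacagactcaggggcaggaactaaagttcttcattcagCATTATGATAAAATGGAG
TRBV29: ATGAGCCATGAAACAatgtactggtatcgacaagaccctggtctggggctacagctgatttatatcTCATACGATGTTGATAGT
TRBV14: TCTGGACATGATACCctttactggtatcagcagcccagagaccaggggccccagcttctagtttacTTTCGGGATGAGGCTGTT
TRBV17: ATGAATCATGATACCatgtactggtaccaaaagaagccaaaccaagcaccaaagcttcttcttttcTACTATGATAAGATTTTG
TRBV13-2: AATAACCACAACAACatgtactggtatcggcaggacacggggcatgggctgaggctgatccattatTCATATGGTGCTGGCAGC
TRBV1: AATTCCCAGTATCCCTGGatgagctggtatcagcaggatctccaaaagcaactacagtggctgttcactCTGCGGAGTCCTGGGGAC
Between them, TRBV12-1 and TRBV12-2 were identical at 69 of 84 bases of this stretch (82.1%), and TRBV13-1 and TRBV13-2 at 79 of 84 (94.0%).

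The expression library gave a second reading of the V call. In 2449 of the 2514 cells (97.4%) the Trbv gene with most UMIs was the one matched to the contig's V call, and for 20 of 21 segments the names were the same. TRBV10 was the exception. Its 120 cells had 0 Trbv10 UMIs, 113 of them (94.2%) were led by Trbv4 at a mean of 16.4 UMIs, and they held 90.2% of all 2176 Trbv4 UMIs. No contig was called TRBV4. The segment is called TRBV10 here as in the deposited contigs. A composite call, TRBV12-2+TRBV13-2 (219 cells), had the same 270 bases as TRBV13-2 (27 cells) and was 44.1% identical to TRBV12-2, so it was counted as TRBV13-2. In the RefSeq table of assembly GRCm38.p6, Trbv10 and Trbv29 are listed as pseudogenes, and Trbv4, which led the cells called TRBV10, as a V segment. Trbv31 is the only V segment there that lies after the last J segment.

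J calls followed the constant gene. Of 816 cells with a TRBJ1 call (32.5%), 815 had a TRBC1 call, and of 1698 with a TRBJ2 call, 1694 had TRBC2. In the expression library the TRBJ1 cells averaged 7.51 Trbc1 UMIs and the TRBJ2 cells 2.37, while Trbc2 stood at 7.96 and 8.08, so Trbc1 UMIs separated the J clusters and Trbc2 UMIs did not. A D call was given in 581 cells (23.1%). TRBD2 made up 1.90% of D calls beside TRBJ1 and 46.6% beside TRBJ2.

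Lineages were set from UMIs: CD8 (Cd8a at least 2, no Cd4 or Foxp3), conventional CD4 (Cd4 at least 1, no Cd8a or Foxp3) and Treg (Foxp3 at least 2, no Cd8a). They held 1439, 467 and 480 cells with a beta chain, with 128 cells in none, and 1044, 446 and 442 clones. Of genes outside the rule, Cd8b1, Ikzf2 and Cd40lg followed the names, and Tnfrsf4 and Icos, listed for conventional CD4 cells, did not. Cd8b1, the second CD8 chain, stood at 1068 CPM (a count of UMIs scaled to the same total in each lineage) in CD8, 8.02 in conventional CD4 and 11.3 in Treg cells. Ikzf2, a Treg transcription factor, stood at 1743 in Treg and 181 in conventional CD4 cells, and Cd40lg, a helper ligand, at 333 in conventional CD4 and 24.2 in Treg cells. Tnfrsf4 stood at 522 in conventional CD4 and 1829 in Treg cells, and Icos at 697 and 1487. The beta chain was found in 95.7%, 94.5% and 89.9% of CD8, conventional CD4 and Treg cells, at medians of 28, 21 and 17 beta UMIs. With a minimum of 3 beta UMIs per cell, 12 of the 13 segment calls between lineages given below held, TRBV12-1 being lost.

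Identical receptors were spread over the pools in a way the replicate numbers do not describe. In replicate 2 the colour that the matrices give each hashtag conflicts with the tag numbers of the labels in 12 of 12 tags, and the matrices' colours are used here. Clones with the same alpha and beta sequences were counted between hashed samples, as a share of the smaller sample's clones. Red and green samples of 1 pool, whose cells are labelled as coming from the same tumours, shared 6 clones (0.718%), in 3 of 12 pairs. Samples of one condition with the other replicate number and the other colour shared 66 (11.3%), in 10 of 12 pairs. Those with the other replicate number and the same colour shared 4 (0.687%), and samples of different conditions 3 in all. The red cells whose receptor was also in the green sample made up 0.623% ± 1.53 (SD, n = 12) against the same replicate and 10.4% ± 10.1 against the other, with a highest value of 36.1% in NT day 3 replicate 1. By the labels' tag numbers the sharing pairs would have 1 colour and different replicate numbers. No cause was tested. The comparisons below were also run with crossed pools, red cells of one replicate number joined with green cells of the other, and, for colour, with the labels' colours, both chosen or read with these results known.

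**Figure D1:**
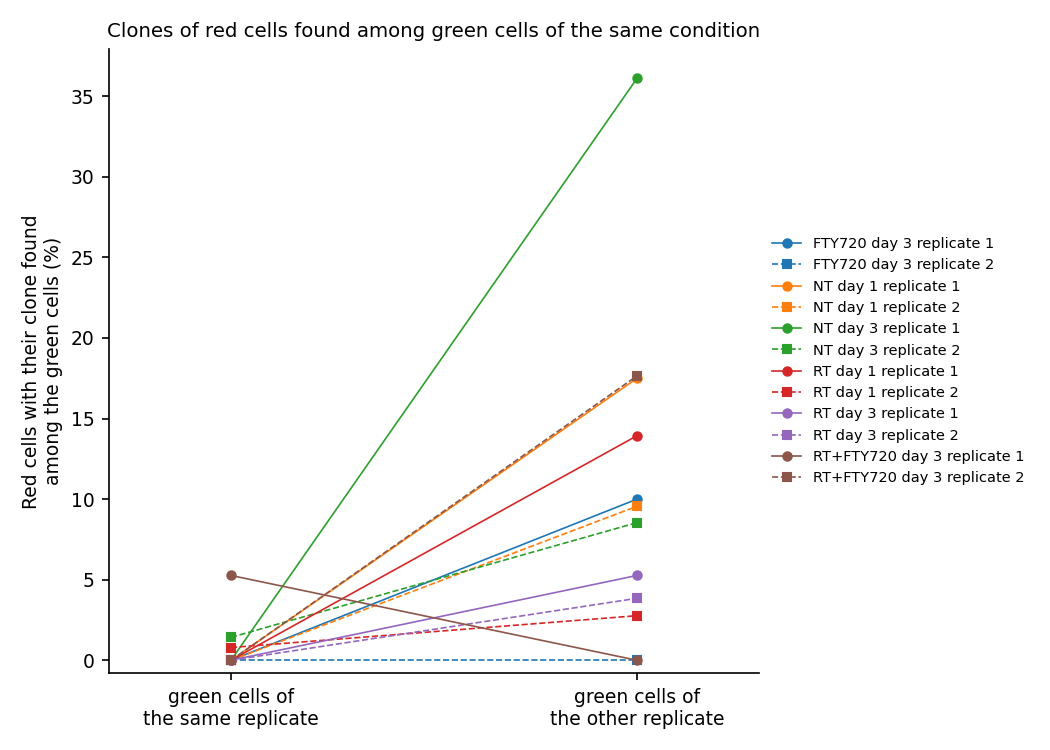
Percentage of the red cells of each tumour pool whose alpha-beta clone was found among green cells of the same condition, with the same replicate number (left) or the other (right); each line is 1 pool. The left points average 0.623% and the right ones 10.4%, with NT day 3 replicate 1 highest at 36.1%.

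By the mean over the 12 pools TRBV5 stood first among V segments, at 10.06% ± 3.79 (SD, n = 12) of clones, with a lowest pool of 5.95% and a highest of 18.6%. TRBV13-2 followed at 9.19% ± 3.22, TRBV19 at 8.12% ± 2.65, TRBV3 at 7.41% ± 1.91 and TRBV13-1 at 6.69% ± 3.05. Of these 5, each mean lay within the SD of the segments next to it in the order. In clones summed over the pools TRBV13-2 stood before TRBV5, with 216 and 187 clones. The least used segments with at least 10 clones were TRBV23 (0.522% ± 0.572, 12 clones), TRBV30 (0.629% ± 0.987, 10 clones) and TRBV17 (2.07% ± 1.61, 36 clones). Among J segments TRBJ2-7, the last of its cluster, led with 19.08% ± 3.63, followed by TRBJ2-5 at 13.08% ± 3.66 and TRBJ1-1 at 11.18% ± 3.22. The range of TRBJ2-7, 14.9% to 27.9%, lay above the mean of each other J segment.

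**Figure D2:**
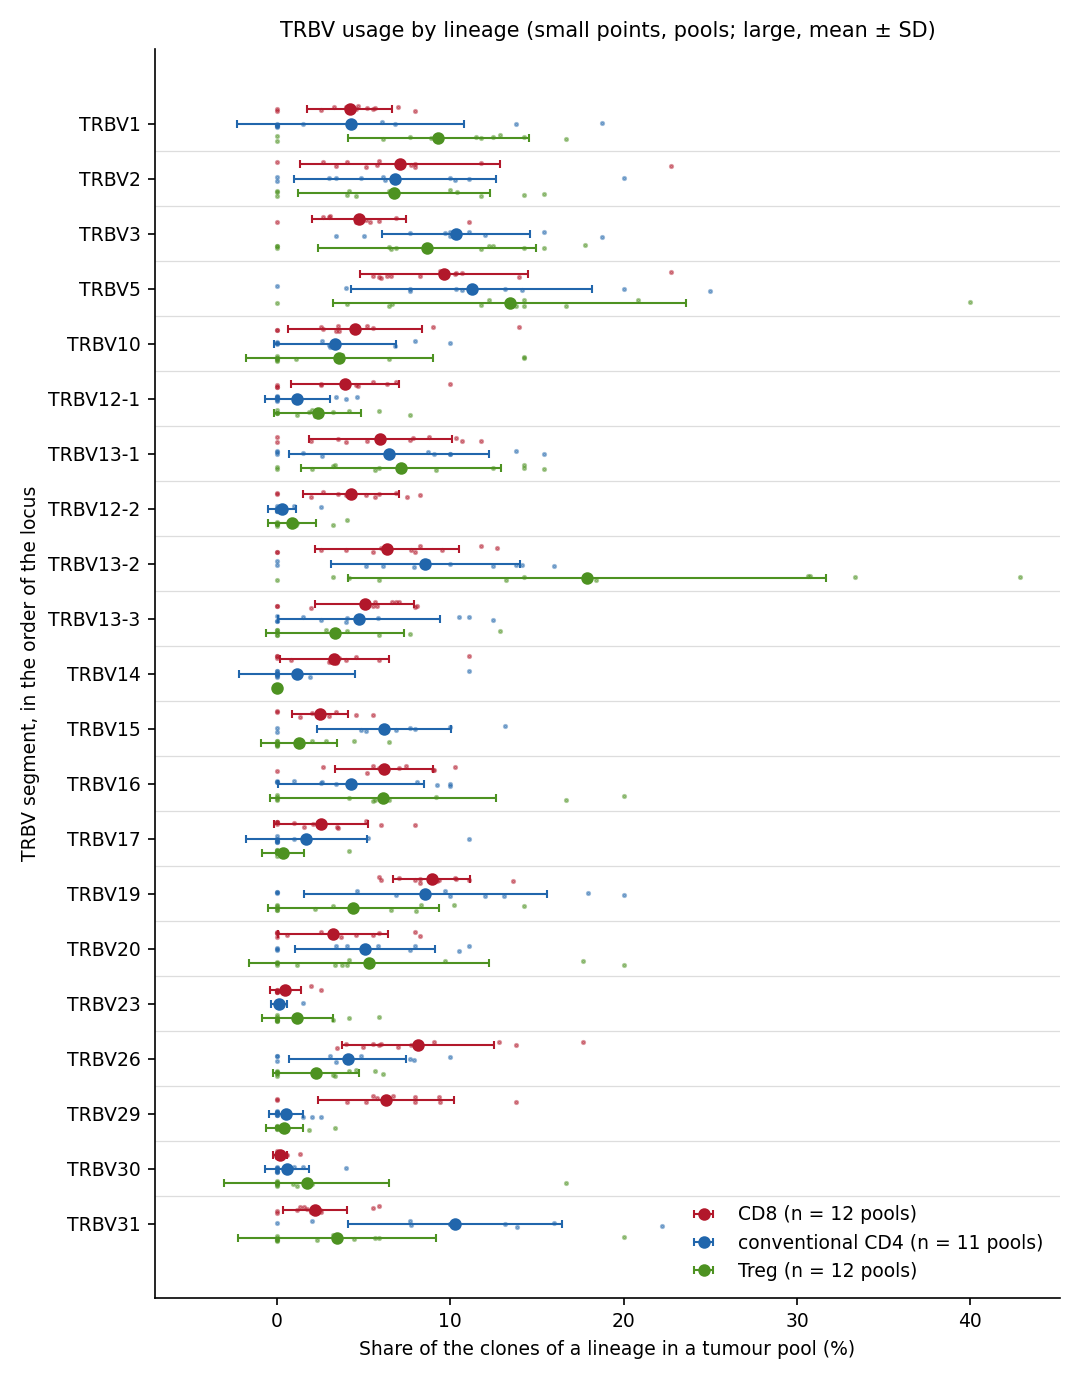
Share of clones (percent) for the 21 TRBV segments in the order of the RefSeq table, by lineage. Large points give the mean, error bars the SD over tumour pools and small points the pools; for TRBV31 the conventional CD4 mean is the highest of the 3 lineages, and for TRBV13-2 the Treg mean.

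Conventional CD4 and CD8 cells of the same tumours used V segments differently. TRBV31, TRBV15 and TRBV3 had higher shares in conventional CD4 clones, and TRBV12-2, TRBV29 and TRBV12-1 in CD8 clones. Of 19 segments with at least 10 clones, 6 (31.6%) were called over 11 pools by edgeR's quasi-likelihood test with the pool as a block and Benjamini-Hochberg adjustment, 3 in each direction. FTY720 day 3 replicate 1 had only 3 conventional CD4 clones and was left out.

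TRBV31, the segment that joins by inversion from behind the J segments, ranged in CD8 clones from 0% over a median of 1.73% to 5.88%, and in conventional CD4 clones from 0% over 10.0% to 22.2%. The means were 1.88% ± 1.58 and 10.3% ± 6.19 (SD, n = 11), and the pools' ranges overlapped at their low end. TRBV31 was lower in CD8 in 10 of 11 pools (log2 fold change -2.12 ± 0.43 SE, adjusted p = 3.32e-05 by edgeR). In NT day 1 it made up 4 of 279 CD8 clones and 14 of 103 conventional CD4 clones. FTY720 day 3, with 19 conventional CD4 clones, had 0 of them with TRBV31.

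TRBV12-2 ranged from 0% over 5.13% to 8.26% of CD8 clones and from 0% over 0% to 2.56% of conventional CD4 clones. Most pools thus had no conventional CD4 clone with it, and 10 of 11 had a higher CD8 share, none a lower one. In all, 59 of 1044 CD8 clones and 2 of 446 conventional CD4 clones carried it, a ratio of shares of 12.6 (95% counting interval 3.34 to 106). The fitted log2 fold change was 3.25 ± 0.68 (SE), with an edgeR adjusted p of 3.46e-05. Its near relative TRBV12-1 moved the same way with less certainty, at 3.79% ± 3.20 against 1.18% ± 1.86 (log2 1.49 ± 0.58 SE, edgeR adjusted p = 0.0351). TRBV12-1 was higher in CD8 in 6 pools and lower in 3, its call held in 13 of 25 alternatives, and leaving out 1 of 6 pools ended it: FTY720 day 3 replicate 2, NT day 1 replicate 1, NT day 3 replicates 1 and 2, RT day 1 replicate 2 and RT with FTY720 day 3 replicate 2. Over the pools left out in turn its log2 fold change ran from 0.98 to 2.25.

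TRBV29 ranged from 0% over 6.70% to 13.8% in CD8 and from 0% over 0% to 2.56% in conventional CD4 clones. Its means were 6.38% ± 4.09 and 0.557% ± 0.981, and the log2 fold change was 2.58 ± 0.58 (SE, edgeR adjusted p = 0.000100). It was higher in CD8 in 9 of 11 pools and lower in none. Counted over all clones the ratio of shares was 7.26 (95% counting interval 2.71 to 27.4).

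TRBV3 was the segment with the same direction in every pool. It ranged from 0% over 4.62% to 6.90% in CD8 and from 3.45% over 10.0% to 18.75% in conventional CD4 clones, and was lower in CD8 in 11 of 11 pools (log2 -1.20 ± 0.37 SE, edgeR adjusted p = 0.00527). Without NT day 1 replicate 2 its call was lost, and the log2 fold change ran from -1.38 to -0.94 over the pools left out in turn. TRBV15 stood at 2.19% ± 1.36 in CD8 and 6.19% ± 3.86 in conventional CD4 clones, lower in CD8 in 9 pools and higher in 1 (log2 -1.47 ± 0.44 SE, edgeR adjusted p = 0.00515). Of the 29 conventional CD4 clones with TRBV15 over all pools, 8 had the same CDR3 amino acid sequence, described below. The TRBV15 difference without these 8 was not tested. TRBV20 and TRBV14 had a p under 0.05 before adjustment and an edgeR adjusted p of 0.0915 each.

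The 6 called segments kept their direction in each of 4 batch parts (both replicate numbers and both well sets) and in both colours, and in 5 or 6 of the 6 conditions. These parts hold the same clones that gave the calls, so the kept direction is no separate test. With crossed pools edgeR called 7 segments, the 6 among them. DESeq2 called 3, TRBV12-2, TRBV29 and TRBV31, of which 2 were higher and 1 lower in CD8. None of the 6 separated the lineages without overlap of pools.

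**Figure D3:**
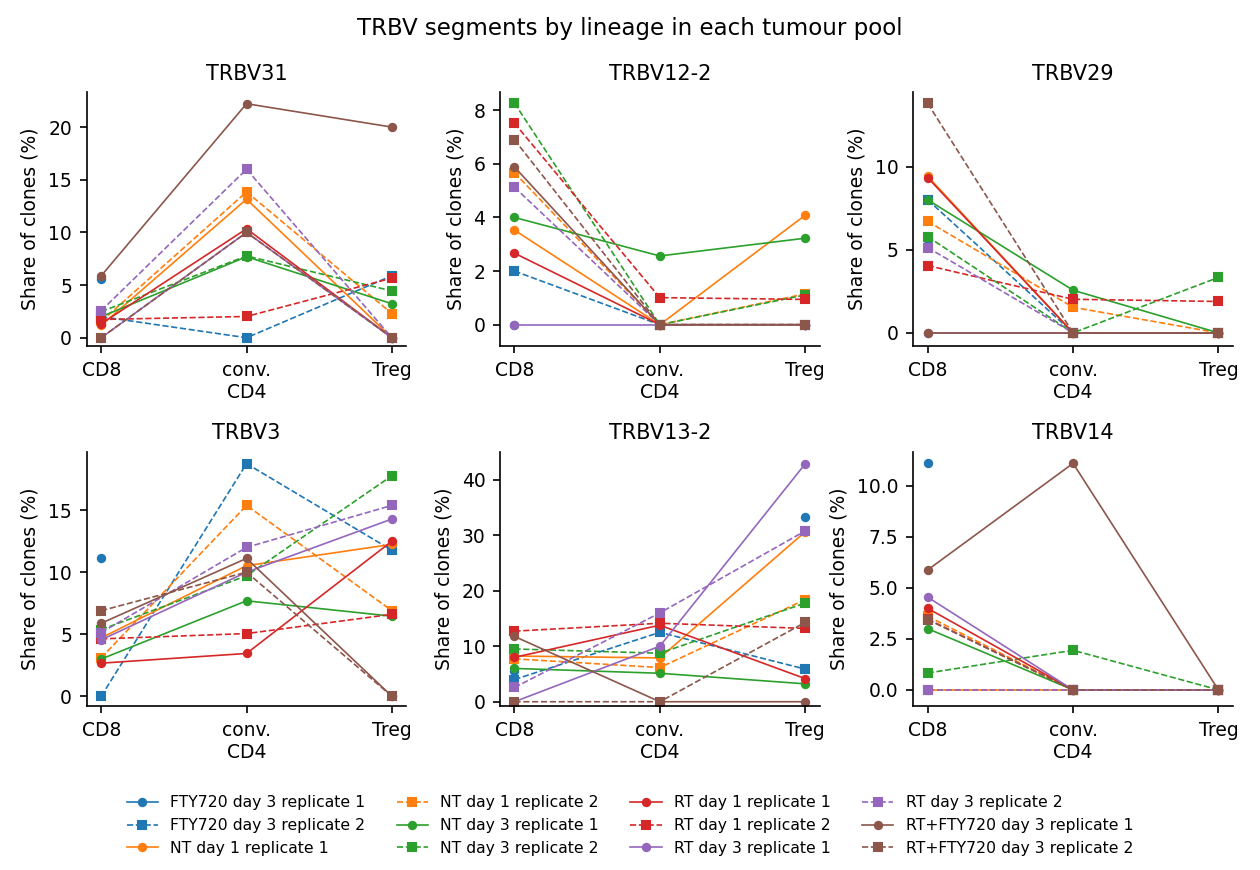
Share of clones (percent) of TRBV31, TRBV12-2, TRBV29, TRBV3, TRBV13-2 and TRBV14 in CD8, conventional CD4 and Treg cells; each line is 1 of the 12 tumour pools. TRBV3 lies higher in conventional CD4 than in CD8 clones in 11 of 11 pools; FTY720 day 3 replicate 1, with 3 conventional CD4 clones, has no point for that lineage.

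Treg clones differed from CD8 clones in partly the same segments. Over 12 pools edgeR called 7 of 20 segments (35%): TRBV29, TRBV14, TRBV12-2 and TRBV17 were lower in Treg, and TRBV3, TRBV13-2 and TRBV1 higher. The CD8 samples are shared with the comparison above, so the values are given side by side only.

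TRBV29 made up 0.435% ± 1.06 of Treg and 6.31% ± 3.90 of CD8 clones (SD, n = 12), lower in Treg in 10 pools (log2 -2.31 ± 0.49 SE, edgeR adjusted p = 0.000101). TRBV12-2 stood at 0.876% ± 1.39 and 4.30% ± 2.75 (log2 -1.94 ± 0.49 SE, edgeR adjusted p = 0.000651), lower in 9 pools and higher in 1. Both were thus scarce in each CD4 lineage.

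TRBV14 was found in 0 of 442 Treg clones, which allows a share of up to 0.679%, and in 26 of 1044 CD8 clones (3.32% ± 3.14 over the pools). With 3 clones over the lineage as the floor it was at least 3.67-fold lower in Treg with the CD8 share taken as measured, the exact 95% counting interval of the ratio of CD8 to Treg starting at 2.78, and it was lower in 9 of 12 pools, the others holding no TRBV14 clone in either lineage (edgeR adjusted p = 0.000330). TRBV17 was carried by 1 Treg clone and 29 CD8 clones, a ratio of shares, CD8 over Treg, of 12.3 (95% counting interval 2.04 to 501), with an edgeR adjusted p of 0.000789 and a lower share in 8 pools. These intervals and floors cover counting error only.

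TRBV13-2 ranged from 0% over 16.03% to 42.9% of Treg and from 0% over 6.87% to 12.7% of CD8 clones. The Treg pools, of 5 to 106 clones, spread widely, and 9 of 12 stood above their CD8 cells and 3 below (log2 0.98 ± 0.25 SE, edgeR adjusted p = 0.000651). With the composite call kept apart, a setting chosen after seeing the data, the log2 difference of the remaining TRBV13-2 clones (27 cells in all lineages) was 2.68, and with TMM scaling it was 0.64. In NT day 1 it made up 31 of 136 Treg clones (22.8%) and 22 of 279 CD8 clones (7.89%), and in RT day 1 11.5% and 11.3%. In RT day 3 the values were 35% of 20 Treg and 1.64% of 61 CD8 clones, and in NT day 3 14.0% and 8.48%. In FTY720 day 3 they were 13.0% and 4.41%, and in RT with FTY720 day 3 8.33% and 4.35%. TRBV3 stood at 8.66% ± 6.28 in Treg and 4.75% ± 2.69 in CD8 clones, higher in 9 pools and lower in 3 (log2 1.24 ± 0.32 SE, edgeR adjusted p = 0.000651). TRBV1 stood at 9.31% ± 5.21 and 4.21% ± 2.46, higher in 10 pools and lower in 1 (log2 1.02 ± 0.32 SE, edgeR adjusted p = 0.00409). An exact sign-flip permutation test per segment, which weights pools alike, called 6 segments, leaving out TRBV3 and TRBV13-2 (adjusted p = 0.0806 for TRBV13-2) and adding TRBV26. With TMM scaling edgeR called 11 segments, 2 higher and 9 lower in Treg, TRBV1 no longer among them. TMM moved the median log2 difference of all 20 segments from -0.07 to -0.49, so the 3 segments named as higher are so relative to all clones.

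Between Treg and conventional CD4 clones edgeR called 0 of 15 V segments (0%), with 3 at an unadjusted p under 0.05, and DESeq2 called 0. TRBV15 had the smallest p, at 1.43% ± 2.26 of Treg and 6.19% ± 3.86 of conventional CD4 clones (log2 -1.48 ± 0.56 SE, edgeR adjusted p = 0.0954). TRBV31 stood at 3.77% and 10.3% (edgeR adjusted p = 0.0954), and TRBV1 at 8.64% and 4.27% (edgeR adjusted p = 0.127). These differences did not pass, which does not show that the lineages are alike, and without the block by tumour pool edgeR called 4 segments.

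J usage was tested in the same way. edgeR called 0 of 12 J segments (0%) for CD8 against conventional CD4, with 2 at an unadjusted p under 0.05, and DESeq2 called 0. The J segments of these values are shown by the framework 4 stretch after CDR3, all in lower case.
TRBJ1-3: ggagaaggaagccggctcattgttgtag
TRBJ1-6: gcggcaggcacccggctcactgtgacag
TRBJ2-1: ggaccagggacacgactcaccgtcctag
TRBJ1-3 made up 2.78% ± 2.09 of CD8 and 8.20% ± 4.11 of conventional CD4 clones (log2 -1.05 ± 0.38 SE, edgeR adjusted p = 0.0769), and TRBJ1-6 8.26% ± 5.68 and 1.96% ± 2.31 (log2 1.00 ± 0.40 SE, edgeR adjusted p = 0.0769). The exact sign-flip permutation test over the pools called both, TRBJ1-3 as lower in CD8 in 11 of 11 pools (adjusted p = 0.0117) and TRBJ1-6 as higher in 10 of 11 (adjusted p = 0.0234). The J calls thus depended on the test. For Treg against CD8 edgeR called 0 of 12, with 3 at an unadjusted p under 0.05; TRBJ2-1 had the smallest p, at 5.65% ± 5.47 of Treg and 10.9% ± 6.72 of CD8 clones (log2 -0.76 ± 0.27 SE, edgeR adjusted p = 0.0777), and DESeq2 called 1. For Treg against conventional CD4 edgeR and DESeq2 called 0 of 12, with 1 at an unadjusted p under 0.05, TRBJ1-5 (log2 1.20 ± 0.57 SE, edgeR adjusted p = 0.435).

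**Figure D4:**
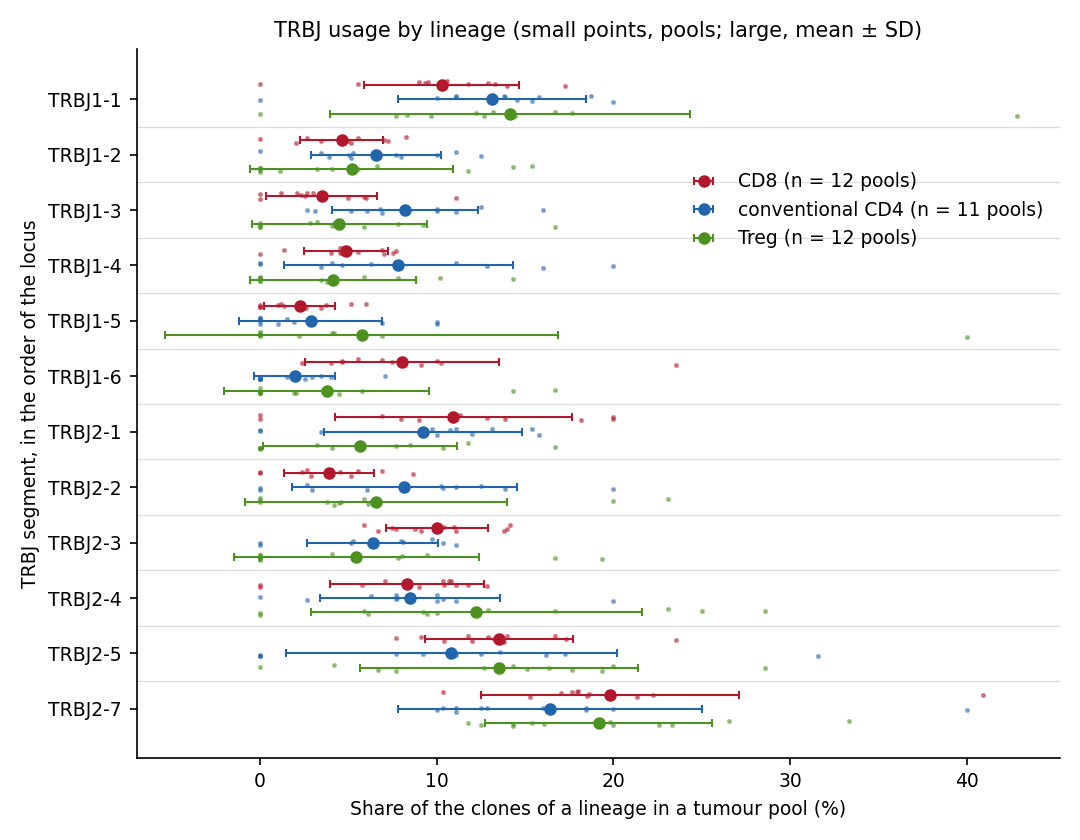
Share of clones (percent) for the 12 TRBJ segments by lineage, with large points for the mean, error bars for the SD and small points for the tumour pools. TRBJ2-7 has the highest mean in each lineage, TRBJ1-3 stands higher in conventional CD4 and TRBJ1-6 in CD8 clones, differences that edgeR did not call.

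The share of clones with a TRBJ2 segment was 66.5% ± 7.82 in CD8 and 59.5% ± 8.37 in conventional CD4 clones (n = 11 pools), higher in CD8 in 9 of 11 pools, a difference of 6.99 percentage points (two-sided exact permutation test by sign-flip, p = 0.0273, adjusted p = 0.164 over 6 values). Mean CDR3 length was 41.2 ± 1.17 nucleotides in Treg and 42.2 ± 0.66 in CD8 clones, longer in Treg in 2 of 12 pools (difference -1.01 nucleotides, exact sign-flip permutation p = 0.0591, adjusted p = 0.177). Neither passed, nor did the other 4 lineage values, whose adjusted p values reached from 0.346 to 0.537 in exact sign-flip permutation tests.

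Red cells, which had been in the photoconverted nodes, and green cells of the same pool were compared within each lineage, and no V or J segment was called. In CD8 cells of 12 pools, with 564 red and 484 green clones, edgeR called 0 of 19 V and 0 of 12 J segments (0%), with 0 and 1 at an unadjusted p under 0.05. TRBV3 had the smallest V p (log2 red over green -0.57 ± 0.47 SE, edgeR adjusted p = 0.961) and TRBJ2-4 the smallest J p (-0.63 ± 0.31 SE, edgeR adjusted p = 0.499). TRBV29, scarce outside CD8 cells, had a log2 difference of 0.34 between colours, with a 95% interval of -0.43 to 1.11.

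In conventional CD4 cells of 8 pools edgeR called 0 of 14 V and 0 of 11 J segments, with 0 and 1 at an unadjusted p under 0.05. The smallest p values belonged to TRBV26 (log2 -1.13 ± 0.74 SE, edgeR adjusted p = 0.971) and TRBJ2-5 (0.92 ± 0.44 SE, edgeR adjusted p = 0.423). In Treg cells of 5 pools it called 0 of 14 and 0 of 12, with 0 and 0 at an unadjusted p under 0.05, and TRBV5 (log2 1.05 ± 0.79 SE, edgeR adjusted p = 0.903) and TRBJ2-3 (-0.66 ± 0.45 SE, edgeR adjusted p = 0.873) came first. DESeq2 called 0 in these 6 fits. The TRBJ2 share was 69.4% in red and 55.6% in green conventional CD4 clones (exact sign-flip permutation test, adjusted p = 0.422, 8 pools, smallest possible unadjusted p 0.0078). With 5 Treg pools that exact permutation test cannot go below p = 0.0625.

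Radiation was compared within day 1, day 3 and day 3 with FTY720. NT day 3 shared its wells with the day 1 conditions and RT day 3 with the FTY720 conditions, so at day 3 without FTY720 well and radiation cannot be told apart, and the comparisons of FTY720 and of days cross wells in part. edgeR called 0 V segments of 19 in CD8, 14 in conventional CD4 and 15 in Treg cells (0% each), and 0 at an unadjusted p under 0.05. TRBV10 in CD8 clones made up 2.31% ± 2.03 with radiation and 6.71% ± 4.10 without as means over pools, and with strata and clone numbers taken into account its log2 difference was -0.61 ± 0.51 (SE, edgeR adjusted p = 0.962). TRBV19 in conventional CD4 (1.00 ± 0.57 SE, edgeR adjusted p = 0.875) and TRBV2 in Treg cells (0.63 ± 0.52 SE, edgeR adjusted p = 0.802) had the smallest p of their fits. Of J segments 0 of 12, 11 and 12 were called, with 0, 0 and 1 at an unadjusted p under 0.05, led by TRBJ2-2 in CD8 (-0.82 ± 0.45 SE, edgeR adjusted p = 0.651), TRBJ2-4 in conventional CD4 (0.92 ± 0.41 SE, edgeR adjusted p = 0.395) and TRBJ1-3 in Treg cells (-1.50 ± 0.68 SE, edgeR adjusted p = 0.344).

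FTY720 was compared at day 3 over 4 pools with it and 4 without, holding 114 and 403 CD8 clones. edgeR called 0 of 19 V and 0 of 12 J segments in CD8 cells and 0 of 14 and 0 of 11 in all CD4 cells, with 0, 1, 0 and 0 at an unadjusted p under 0.05. The first segments were TRBV12-1 (log2 1.02 ± 0.71 SE, edgeR adjusted p = 0.838) and TRBJ2-1 (-1.14 ± 0.56 SE, edgeR adjusted p = 0.547) in CD8, and TRBV1 (1.11 ± 0.64 SE, edgeR adjusted p = 0.704) and TRBJ2-4 (-1.24 ± 0.60 SE, edgeR adjusted p = 0.641) in CD4 cells. Standard errors of this size leave room for large differences, which were not detectable at this depth.

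Day 3 was compared with day 1 without FTY720, and edgeR called 0 of 19 V and 0 of 12 J segments in CD8 cells and 0 of 15 and 0 of 12 in all CD4 cells, with 0, 1, 1 and 1 at an unadjusted p under 0.05. TRBJ1-6 in CD8 clones stood at 8.70% ± 1.25 on day 3 and 3.90% ± 1.08 on day 1 (n = 4 pools each, log2 1.00 ± 0.37 SE, edgeR adjusted p = 0.195). TRBV16 had the smallest V p in CD8 (0.54 ± 0.34 SE, edgeR adjusted p = 0.860) and in CD4 cells (-0.997 ± 0.465 SE, edgeR adjusted p = 0.544), and TRBJ2-5 the smallest J p in CD4 cells (-0.62 ± 0.28 SE, edgeR adjusted p = 0.288). DESeq2 called 0 in the radiation, FTY720 and day fits. The 6 TRBJ2 share and CDR3 length values for radiation had adjusted p values of 0.472 to 0.769 in exact permutation tests.

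The lineage differences were read a second time as RNA. In sums of UMI counts per pool and lineage edgeR called 3100 of 8176 genes (37.9%) between CD8 and conventional CD4 cells and 1963 of 6882 (28.5%) between Treg and conventional CD4 cells. Of 17 Trbv genes tested in the first, 4 were higher in CD8 (Trbv29 by 1.74, Trbv12-2 by 1.51, Trbv16 by 1.19 and Trbv4 by 1.19 on the log2 scale) and 4 lower (Trbv3 -1.77, Trbv31 -1.32, Trbv15 -1.30 and Trbv20 -1.28). Trbv29, Trbv12-2, Trbv3, Trbv31 and Trbv15 had the direction of their clones. RNA weights a clone by its cells and their RNA, so it is the same cells and no independent sample. The sign was the same for clones and UMIs in 12 of 17 segments here and in 11 of 13 between Treg and conventional CD4 cells, where 4 of 14 Trbv genes were lower in Treg (Trbv15 -3.13, Trbv31 -2.19, Trbv13-3 -1.17 and Trbv3 -0.95) and 0 higher. The median over those 14 genes was -0.91, their called share is close to the 28.5% of all genes, and TRBV3 clones had a log2 difference of 0.07.

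Genes of the receptor and of its proximal signalling differed by lineage too. In a list of 20 such genes, 13 were tested, and 7 were higher and 4 lower in CD8 than in conventional CD4 cells (median log2 0.24). Of all genes 37.9% were called in that comparison. The constant genes Trbc1 (0.48), Trbc2 (0.28) and Trac (0.25), the CD3 chains Cd3e (0.48), Cd3d (0.44) and Cd3g (0.32) and the kinase Zap70 (0.24) were higher. Cd5, a receptor that dampens TCR signals, was lower (-1.12), as were Cd247, the zeta chain (-0.70), Cd6 (-0.46) and the adaptor Lat (-0.29). In Treg against conventional CD4 cells 2 were higher (Cd5 0.54, Trac 0.41) and 7 lower, among them Trbc2 (-0.66), Trbc1 (-0.65), Cd247 (-0.52), Cd3g (-0.51), the kinase Lck (-0.36) and Lat (-0.29), with a median of -0.29. There 28.5% of all genes were called. Trbc1 and Trbc2 changed in the same direction as each other in both comparisons, and the TRBJ2 share of clones, which goes with Trbc2, gave no call.

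Most clones were seen once. Counted with their V and J calls, by which 1 CDR3 in a pool splits, 1784 of 2031 clones (87.8%) had 1 cell, 247 had at least 2 and 33 at least 5, and 29.0% of cells belonged to a clone of at least 2. The largest clones are shown by their CDR3, with capitals for the bases between the match to the start shared by the V segment's clones and the end shared by the J segment's clones.
TRBV20 with TRBJ2-4: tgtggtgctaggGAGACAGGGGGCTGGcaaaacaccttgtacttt
TRBV16 with TRBJ2-7: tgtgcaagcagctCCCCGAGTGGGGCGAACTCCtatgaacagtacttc
TRBV10 with TRBJ1-1: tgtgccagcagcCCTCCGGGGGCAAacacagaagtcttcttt
The first, of 20 cells in NT day 1 replicate 2, red by the matrices' and green by the labels' colours, raised TRBV20 to 1.52 cells per clone, which was 1.26 without it. The others had 14 and 12 red cells in NT day 3 replicate 1. By the matrices' colours their beta sequences were also in 6 and 7 green cells of NT day 3 replicate 2. That of the first was also in 1 green cell of NT day 1 replicate 1. Of the V segments TRBV26 had the highest share of expanded clones, 20.2% with at least 2 cells, where all segments together had 247 of 2031. Of the segments called higher in Treg than in CD8 clones, TRBV13-2 had 4.63%, TRBV3 4.96% and TRBV1 10.7%. These differences in expansion were not tested.

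V and J segments joined in most combinations. Of 252 possible pairs 234 were seen, and each of the 154 pairs with at least 5 clones by the product of the V and J shares was seen. The ratio of seen to product had a median of 0.972. It ran from 0.162 for TRBV26 with TRBJ2-2 (1 clone, 6.17 by the product) to 4.56 for TRBV26 with TRBJ1-6 (24 clones, 5.26 by the product), so the same V segment stood at both ends. TRBV15 with TRBJ1-1 had 20 clones against 7.79 (2.57). The most frequent pair, TRBV13-2 with TRBJ2-7, had 42 clones (2.07%). These pairs were named after their values were seen and carry no test.

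**Figure D5:**
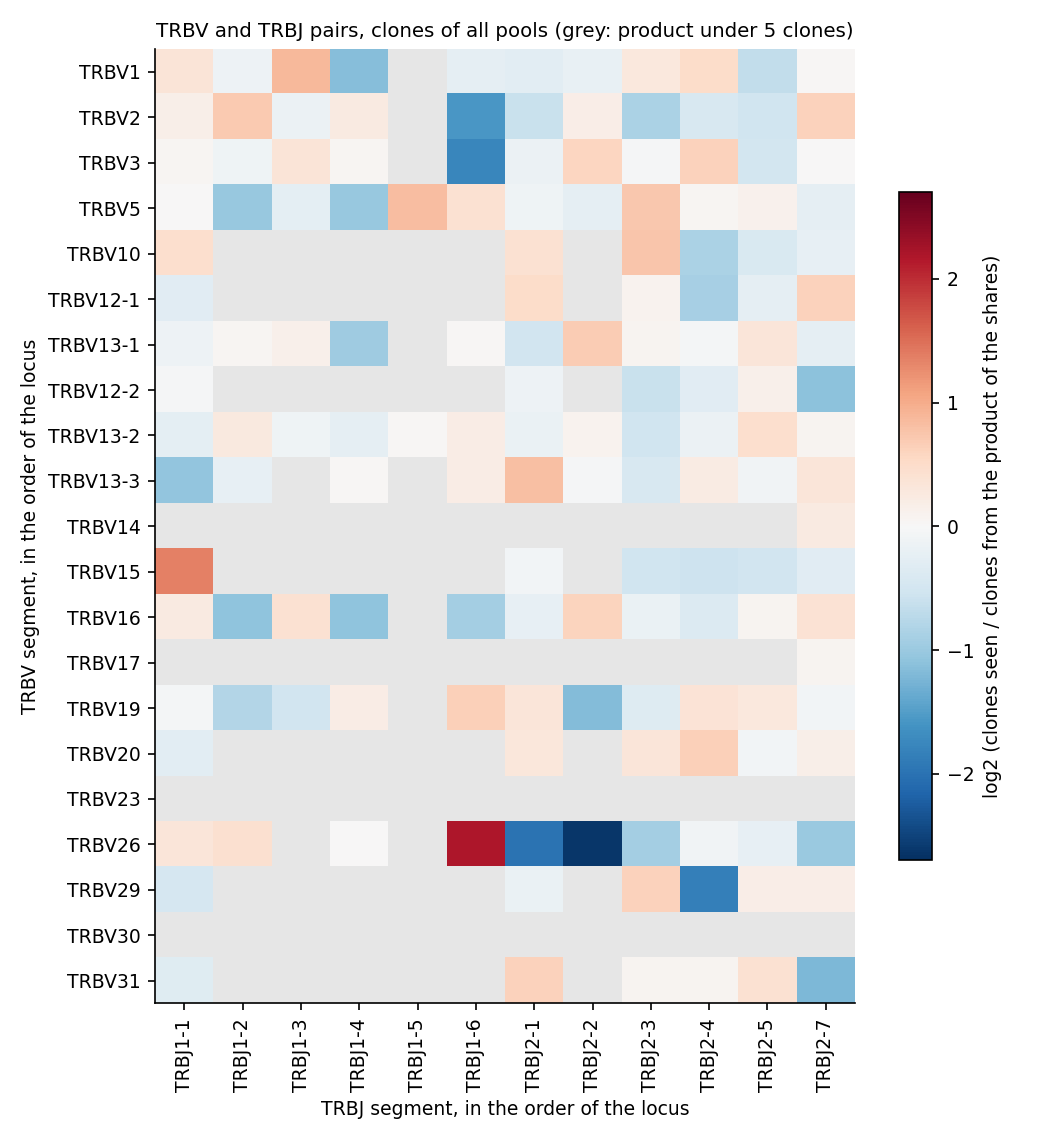
Log2 ratio of clones seen to the product of V and J shares for each V (rows) and J (columns) segment, in grey where the product is under 5 clones. TRBV26 with TRBJ1-6 has the highest ratio, 4.56.

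The TRBV26 and TRBJ1-6 clones were alike in more than their segments. Of the 24 clones, 23 were CD8 and 1 Treg, and 19, all CD8, had a CDR3 of 45 nucleotides. Those 19 came from 10 pools of all 6 conditions, as 14 distinct nucleotide sequences in 26 cells. By the matrices' colours 19 of these cells were red and 7 green, and by the labels' colours 11 and 15. Of the 14, 4 are shown to let their likeness be seen, marked as above.
TRBV26 with TRBJ1-6, sequence 1: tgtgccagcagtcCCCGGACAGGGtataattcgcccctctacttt
TRBV26 with TRBJ1-6, sequence 2: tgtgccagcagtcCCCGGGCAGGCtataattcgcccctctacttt
TRBV26 with TRBJ1-6, sequence 3: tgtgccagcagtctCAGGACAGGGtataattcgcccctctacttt
TRBV26 with TRBJ1-6, sequence 4: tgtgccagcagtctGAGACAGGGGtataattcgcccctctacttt
Of the 45 positions 32, the last 18 among them, were the same in all 19 clones. The first position that differed was 12 and the last 27. The bases outside that stretch are the ends that TRBV26 and TRBJ1-6 clones share, so their likeness follows from the choice of segments. Of the 19 clones 16 (84.2%) paired with an alpha chain using TRAJ37, against 44 of 987 other CD8 clones (4.46%). The 16 came from 9 pools of 5 conditions and used 7 TRAV segments, 12 beta and 13 alpha CDR3 sequences. A receptor found in several pools was counted in each. TRBJ1-6 made up 23 of 66 CD8 TRBV26 clones (34.8%), 0 of 20 conventional CD4 and 1 of 18 Treg clones with TRBV26. Without TRBV26 the TRBJ1-6 share of CD8 clones went from 6.32% to 4.40%, and that of conventional CD4 clones from 3.14% to 3.29%.

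Another combination of V, J and length held similar receptors in conventional CD4 cells. TRBV15 with TRBJ1-1 and 42 nucleotides had 14 clones, 10 of them conventional CD4. Of these, 8 paired with TRAV6N-7 and TRAJ22, all conventional CD4, from 6 pools of 3 conditions. Among the other clones 2.48% used TRAV6N-7 and 5.17% TRAJ22. The 8 clones were 7 green cells and 1 red by the matrices' colours, and 2 green and 6 red by the labels' colours. They had 8 distinct CDR3 nucleotide sequences and 1 translation, that is 1 amino acid sequence spelled in 8 ways, of which 4 are shown.
TRBV15 with TRBJ1-1, sequence 1: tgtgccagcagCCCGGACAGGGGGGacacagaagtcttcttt
TRBV15 with TRBJ1-1, sequence 2: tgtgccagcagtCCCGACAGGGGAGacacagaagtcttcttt
TRBV15 with TRBJ1-1, sequence 3: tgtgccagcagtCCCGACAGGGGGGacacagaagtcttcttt
TRBV15 with TRBJ1-1, sequence 4: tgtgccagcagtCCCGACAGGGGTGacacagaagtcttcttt
TRBV19 with TRBJ2-7 and 36 nucleotides had 12 clones, 11 of them CD8. Of the 12, 9 used TRAV6-7-DV9, against 1.70% of the other clones, and 6 TRAJ53, against 10 of 995 other CD8 clones (1.01%). A sequence of this combination was found in 4 pools of 2 conditions, in 12 CD8 cells with 4 alpha chains.
TRBV19 with TRBJ2-7: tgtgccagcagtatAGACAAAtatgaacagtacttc
In all, 12 combinations of V, J and length had at least 10 clones, and their leading TRAJ segment made up 16.7% to 84.2% of clones, with a median of 40.4%. TRBV16 with TRBJ2-7 and 42 nucleotides, 10 clones that were all CD8, used TRAJ7 in 8, against 6.30% of the other clones. TRBV5 with TRBJ2-3 and 45 nucleotides used TRAJ7 in 7 of 12, against 6.35% of the other clones. These combinations were chosen after their values were seen.

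A small set of cells carried the alpha chain of invariant natural killer T cells, TRAV11 with TRAJ18, which is known to pair with few beta V segments and to read lipids on CD1d. There were 10 such cells in 6 pools, with 10 different beta chains and 7 J segments. TRBV13-2 was used by 4, TRBV29 by 3, TRBV1 by 2 and TRBV13-3 by 1. Those 4 segments, listed from the 10 cells themselves, made up 24.5% of the 2504 other cells (Wilson 95% interval 22.8 to 26.2). Any cells use only the segments listed from them, so these values are no test of a limited pairing. None of the 10 had a Cd8a UMI, 6 were conventional CD4 by the rule and 4 in no lineage, and 8 were green and 2 red by the matrices' colours. By the labels' colours 3 were green and 7 red, and 9 of the 10 were from replicate 2. The beta CDR3 of 3 of them show how far they differ.
TRBV1 with TRBJ2-4: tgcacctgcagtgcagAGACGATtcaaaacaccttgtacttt
TRBV13-2 with TRBJ1-2: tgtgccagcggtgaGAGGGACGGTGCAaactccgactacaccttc
TRBV29 with TRBJ1-2: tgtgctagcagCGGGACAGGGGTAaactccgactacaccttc
RT day 1 had 2 conventional CD4 clones with TRBV29, and both were such cells, of replicate 2. Cells with TRAV1 and TRAJ33, the chain of mucosal-associated invariant T cells, numbered 0.

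Across conditions few beta sequences recurred. There were 19 found in at least 2 conditions, 2 of them in at least 3. Of the 19, 7 used TRBJ2-7, which made up 18.4% of all clones, a difference that was not tested. The median number of bases between the V and J matches of the 19 was 11, the same as over all clones.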

How the data were processed

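Each of 4 wells had libraries of expression, hashtags and TCR chains. The deposited values are raw counts: UMIs of each gene and hashtag in each cell, and reads and UMIs of each contig; the authors used Cell Ranger 8.0.1 and build mm39, per the submitters' processing notes. No genome of that build was used, so no coordinates are given, and gene order and biotype come from the RefSeq table of GRCm38.p6.

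Kept cells had 500 or more genes and no more than 10% mitochondrial UMIs, and were given to a sample where the top hashtag had at least 20 UMIs and 3 times the next; no doublet caller was run, and 90 cells with at least 2 productive beta contigs were kept. No cell barcode was shared between wells, at 33 to 548 cells with a beta chain per tumour pool, and 110 barcodes with a beta contig were not in the matrices.

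Counts of clones per segment, in sums of at least 5 clones and for segments of at least 10 clones, were tested with edgeR 4.0.16 (glmQLFit, glmQLFTest; library size the clones of the sum, no further scaling; tumour pool as a block for lineage and colour; Benjamini-Hochberg threshold 0.05). For expression, UMI counts were summed per pool and lineage, with filterByExpr and TMM. Single values were tested by exact permutation. Scripts were tested on simulated data. DESeq2 1.42.0, R 4.3.3, Python 3.11.15, pandas 2.3.3, numpy 2.4.6, scipy 1.17.1 and matplotlib 3.10.9 were used.

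Named were the called segments, the 5 V and 3 J with the highest mean share, the lowest 3 V with at least 10 clones, the segment with the smallest p in each comparison without a call and, of genes, Trbv genes of named segments and the receptor list; other segments and pairs named were chosen after their values were seen. The members and lists were chosen with earlier results of these data known. Replicates are labelled as pools of tumours from different mice; identical clones were nevertheless found across replicate numbers, as given in the report, so p-values measure the spread between pools as labelled. One gene of the receptor list and 1 J sequence are not reported here.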

Additional observations from a re-analysis of the deposited data

Results flagged for a closer look

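Red Treg clones of NT day 3 replicate 1 stood apart from those of the other pools in the comparison of colours (n = 5). Their TRBJ2 share was 92.3%, with the other pools at 55.9% to 64.6%, and their mean CDR3 length was 38.8 nucleotides, with the others at 40.9 to 41.7. They were 2 of 20 groups looked at in this way, and chance marks about 1 in 20. Both values are of the same red clones, in a pool with 31 Treg clones of both colours, so they are not separate marks.

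Data outside the comparisons held further signal of V segments. The expression library had Trbv24 UMIs in 76 kept cells, 211 UMIs in all with at most 10 in a cell and at least 5 in 12 cells, while no contig was called TRBV24, and 71 of these cells had a beta chain of another segment. A productive beta contig was also found for 110 barcodes that the matrices do not hold, whose lineage and sample are therefore unknown.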

How the results depend on the processing

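Of 26 fits of segments 24 had 0 calls, so that most comparisons of counts set 0 beside 0: over their alternatives 584 of 595 counts were 0 again, which says little of stability. For the fits with calls 52 of 54 counts stayed within 1.5 times, as did the 32 expression counts, and of 325 log2 folds of called segments 309 kept their call, 16 lost it and 0 reversed; the causes were not tested. V calls moved to 3 for CD8 against conventional CD4 under DESeq2, to 11 for Treg against CD8 under TMM, and for Treg against conventional CD4 to 4 without the block by tumour pool and 0 to 1 leaving out a pool (1 without RT day 1 replicate 2). J calls for CD8 against conventional CD4 became 1 counting cells, 1 without the pool block, 2 by the sign-flip test and 0 to 2 leaving out a pool (2 without NT day 3 replicate 2, 1 without RT day 1 replicate 2). J calls for Treg against CD8 became 2 under TMM, 1 under DESeq2 and 0 to 1 leaving out a pool, and for day 3 against day 1 in all CD4 0 to 1, in both cases 1 without NT day 1 replicate 2. The TRBJ2 difference between CD8 and conventional CD4 was 8.03 points counting cells (exact permutation, adjusted p = 0.0410) and 4.50 to 8.26 leaving out a pool (adjusted p = 0.0352 without NT day 1 replicate 1, exact permutation). The CDR3 length difference between Treg and CD8 ran from -1.33 to -0.80 nucleotides (adjusted p = 0.0293 without RT day 3 replicate 2, exact permutation). Over 25 alternatives each, log2 differences moved by over 1.5 times on the fold scale for TRBV12-1 (0.98 to 2.25), TRBV12-2 (up to 3.86), TRBV29 (2.27 to 3.23) and TRBV15 (-2.08 to -1.33) in CD8 against conventional CD4, and for TRBV13-2 (0.64 to 2.68), TRBV29 (down to -3.08) and TRBV17 (-3.78 to -1.95) in Treg against CD8, leaving aside TRBV14 with its 0 clones in Treg. TRBV1 in Treg against CD8 lost its call under TMM, TRBV15 and TRBV3 in CD8 against conventional CD4 under DESeq2, TRBV3 also without NT day 1 replicate 2, and TRBV12-1 under 12 alternatives.

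Differences that were not called changed sign as follows. Red minus green TRBJ2 share: 4.87 points (CD8) and 1.22 (Treg) with the labels' colours, -0.558 (conventional CD4) with at least 15 clones, and -4.80 to 0.31 (CD8) leaving out a pool. Red minus green CDR3 length in CD8: -0.163 nucleotides with at least 15 clones and -0.181 with the labels' colours. In conventional CD4: 0.318 counting cells, 0.582 with at least 15 clones, 1.07 with the labels' colours, 0.363 with crossed pools, and -0.607 to 0.242 leaving out a pool. In Treg: -0.0613 without cells of at least 2 beta contigs, -0.0446 with stricter lineages, -0.0285 with alpha and beta clones, -0.838 with the labels' colours, and -0.426 to 0.952 leaving out a pool. RT minus NT, leaving out a pool: TRBJ2 share -1.19 to 6.43 (CD8) and -3.01 to 7.46 (Treg), CDR3 length -0.183 to 1.29 (conventional CD4). Crossed pools (7 and 7 V calls) and the composite call kept apart (6 and 8) were chosen after seeing the data.

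Same-numbered replicates did not pair in the data (correlation of deviations -0.211, 0.0517 and 0.0861 for V, 0.145, -0.329 and 0.272 for J usage). With the replicate number as a block the radiation fits called 0 V and 0 J segments, and the TRBJ2 difference was 2.62 points in CD8 (exact permutation, adjusted p = 0.675), -6.28 in conventional CD4 and 2.23 in Treg.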
